A study of Mus musculus with 9 samples.

Results

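HuD RIP recovered many circular RNAs above the level in IgG RIP from the same type of tissue. Host genes are named only for probes that the authors listed as higher in HuD RIP. Of the named probes tested, 89.5% were called higher here, and they include genes of neuronal signalling, the cytoskeleton and synapses. Among named circRNA probes well above background on 2 or more arrays of each group, the largest increases were those of Gnb1, Calm3, Arpp21, Dpysl2, Pcmtd1 and Atp1b1. They were 3.79 to 6.12 on the log2 scale. At an adjusted p under 0.05 in limma, 1152 of 6062 tested probes rose in HuD RIP, and 910 of these were not well above background on any IgG RIP array. Another 1522 probes were lower, nearly all of them probes with signal in both groups. This second count moved more with the scaling than the first, but both moved with the processing. Across all settings the higher count ran from 24 to 4162 and the lower count from 0 to 4227.

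HuD, the product of Elavl4, is a neuronal RNA-binding protein of the ELAV family that recognizes AU-rich and U-rich stretches and acts on RNA stability, processing and translation. Circular RNAs (circRNAs) form when a downstream splice donor of a transcript joins an upstream acceptor, so that each carries a back-splice junction that its linear counterpart lacks. In RNA immunoprecipitation (RIP) an antibody on beads captures a protein, and the RNA that comes with it is measured against a control precipitation, which shows how much RNA is recovered without that protein.

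The comparison used 6 of the 9 arrays of the series, 3 of HuD RIP and 3 of IgG RIP, all from the striatum of adult mice. HuD RIP used beads with an anti-myc tag antibody (9B11) and tissue of HuD transgenic (HuD-OE) mice, which carry myc-tagged HuD under the Camk2a promoter on a C57BL/6J background. IgG RIP was the control precipitation. The study's methods describe it as non-immune IgG with HuD-OE tissue, while the sample labels give it the same anti-myc antibody and no genotype of its own. The other 3 arrays, WT RIP, were made with the anti-myc antibody and wild-type tissue, and their values are given only beside the others. Tissue of several mice was pooled for each precipitation, and whether each of the 3 assays of a group had its own pool is not settled by the sources, so the p-values measure the spread between precipitations, which may be technical. The transgene's promoter limits the tagged protein to the cells in which that promoter is active, and endogenous HuD carries no tag.

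Leaving out controls, 14330 probes were read per array (14236 for circRNAs, 50 for linear genes and 44 others). Tested were the 6062 whose signal stood well above background on 3 or more of these 6 arrays, 6020 of them for circRNAs, while 3475 probes were well above background on none of the 6. The scaled signal is the log2 of the background-corrected intensity minus the 75th percentile of the same array, so 0 marks that percentile. Before scaling, that percentile was 3.49 to 5.46 on the HuD RIP arrays and 2.04 to 2.42 on the IgG RIP arrays, and 43.7% to 73.9% of probes stood well above background in HuD RIP against 21.7% to 26.3% in IgG RIP. HuD RIP replicate 2 was the dimmest of its group on both measures. After scaling, arrays correlated across tested probes at 0.94 to 0.95 within IgG RIP and at 0.66 to 0.89 within HuD RIP, and HuD RIP replicate 2 correlated with the IgG RIP arrays at 0.80 to 0.81, where probes are not independent replicates. IgG RIP replicate 3 had a scan date of its own, and the other 5 of these arrays shared 1 scan date. Its position on the slide was that of IgG RIP replicate 1, and slide names were not read.

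Host gene names came from the authors' tables of probes they listed as higher in HuD RIP than in IgG RIP or WT RIP. These tables list 737 circRNA probes, of which 734 have a host gene symbol, from 548 host genes. All 737 are counted as named below, 668 of them in the table against IgG RIP and 69 only in the table against WT RIP. All counts over named probes below are therefore counts over probes that were listed for being high on these same arrays. They describe which genes were recovered and support nothing further. Of the 732 named circRNA probes tested, 655 (89.5%) were called higher, and counts over gene lists are to be read against that share.

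To ask which circRNAs came down with tagged HuD beyond the control precipitation, each probe was compared between the 3 arrays of each group. In HuD RIP, 19.0% of the 6062 were called higher and 25.1% lower. All 3 HuD RIP arrays lay above all 3 IgG RIP arrays for 22.4% of tested probes and below them for 36.5%. Among the calls, the arrays did not overlap for 1108 of 1152 higher and 1504 of 1522 lower probes. With no adjustment of p (under 0.05) but a fold over 1.5, the counts were 1353 up and 1988 down. The counts moved with the processing. Normexp background correction left 24 higher and 0 lower calls in limma, with 560 and 12 over 1.5-fold before adjustment, and the methods' t-test 367 and 185 after adjustment. The split between directions was 1064 higher and 661 lower after quantile normalization, 1677 and 302 when the percentile was taken over probes detected on every one of the 6 arrays, and 4162 and 7 with no scaling. Over all tested probes the median change was -0.38 on the log2 scale, against -0.24, 0.38 and 1.84 under these 3 alternatives, and changes are relative to that shift.

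Single arrays also moved the counts. Without HuD RIP replicate 3, 510 probes were higher and 172 lower. Without IgG RIP replicate 2 the counts were 740 and 371, without IgG RIP replicate 3, which had its own scan date, 731 and 383, and without IgG RIP replicate 1, 795 and 609. Nearly all of the higher calls made without 1 IgG RIP array were among the 1152, with 779, 732 and 724 shared calls without IgG RIP replicates 1, 2 and 3. HuD RIP replicate 2, the dimmest array of its group, was the HuD RIP array nearest to IgG RIP for most calls. It had the lowest of the 3 HuD RIP values for 76.7% of the probes called higher and the highest for 93.4% of those called lower, against 29.3% and 55.8% over all tested probes. Every HuD RIP array was brighter than every IgG RIP array, so array brightness and group cannot be told apart.

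The clearest increases among named circRNA probes, measured on at least 2 arrays of each group, fell on 6 host genes. Gnb1 encodes the G protein subunit beta 1, which carries dopamine and other receptor signals inside striatal neurons. Its probe ASCRP4004245 had scaled signals of 7.01, 6.53 and 7.44 in HuD RIP and 0.86, 0.62 and 1.13 in IgG RIP. Every HuD RIP value lay more than 5 log2 units above every IgG RIP value. The difference, a log2 fold change as all differences below, was 6.12 (SE 0.41, limma adjusted p = 1.55e-05), and the WT RIP arrays read 2.45, 0.77 and 0.29. A second Gnb1 probe, ASCRP4010644, read 5.65, 4.65 and 5.57 against 0.04, -0.21 and 0.37, a difference of 5.22 (SE 0.42, adjusted p = 2.59e-05 in limma). Both circRNAs are exonic and on the plus strand, the first at chr4:155527412-155535464 and the second around it at chr4:155515630-155543193, in the coordinates of the authors' tables, which lie inside the genes of GRCm38.

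Calm3 encodes calmodulin, the calcium sensor that activates CaM kinases and calcineurin. Its probe ASCRP4013892 had scaled signals of 7.06, 7.10 and 8.21 in HuD RIP and 2.90, 2.83 and 2.99 in IgG RIP, which gave a difference of 4.55 (SE 0.43, limma adjusted p = 4.9e-05). Probe ASCRP4009614 of the same gene read 6.35, 5.28 and 6.47 against 2.11, 2.43 and 2.15, a difference of 3.80 (SE 0.43, adjusted p = 0.000144 in limma). The groups did not overlap for either, cross-hybridization with related genes was not tested, and both circRNAs are short sense-overlapping ones, spanning 61 and 102 bases. Arpp21, a cAMP-regulated phosphoprotein abundant in medium spiny neurons, had values of 5.26, 4.47 and 5.32 in HuD RIP and 0.75, 0.55 and 0.39 in IgG RIP at probe ASCRP4008264, a log2 fold change of 4.45 (SE 0.40, limma adjusted p = 3.83e-05).

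Dpysl2 encodes CRMP2, a tubulin-binding protein of growing axons. Its probe ASCRP4012777 read 6.61, 4.29 and 5.76 in HuD RIP and 1.47, 1.31 and 1.57 in IgG RIP, which gave a difference of 4.10 (SE 0.54, limma adjusted p = 0.000329). Pcmtd1, which belongs to the protein isoaspartate methyltransferase domain family, read 5.10, 3.64 and 5.09 against 0.64, 0.78 and 0.27 at probe ASCRP4005686, a difference of 4.05 (SE 0.47, adjusted p = 0.000159 in limma). Atp1b1, the beta 1 subunit of the sodium pump, read 5.78, 3.70 and 5.80 against 1.33, 1.47 and 1.08 at probe ASCRP4012895, a difference of 3.79 (SE 0.55, adjusted p = 0.000564 in limma). None of these groups overlapped, and in all 3 genes HuD RIP replicate 2 was the lowest HuD RIP array.

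**Figure D1:**
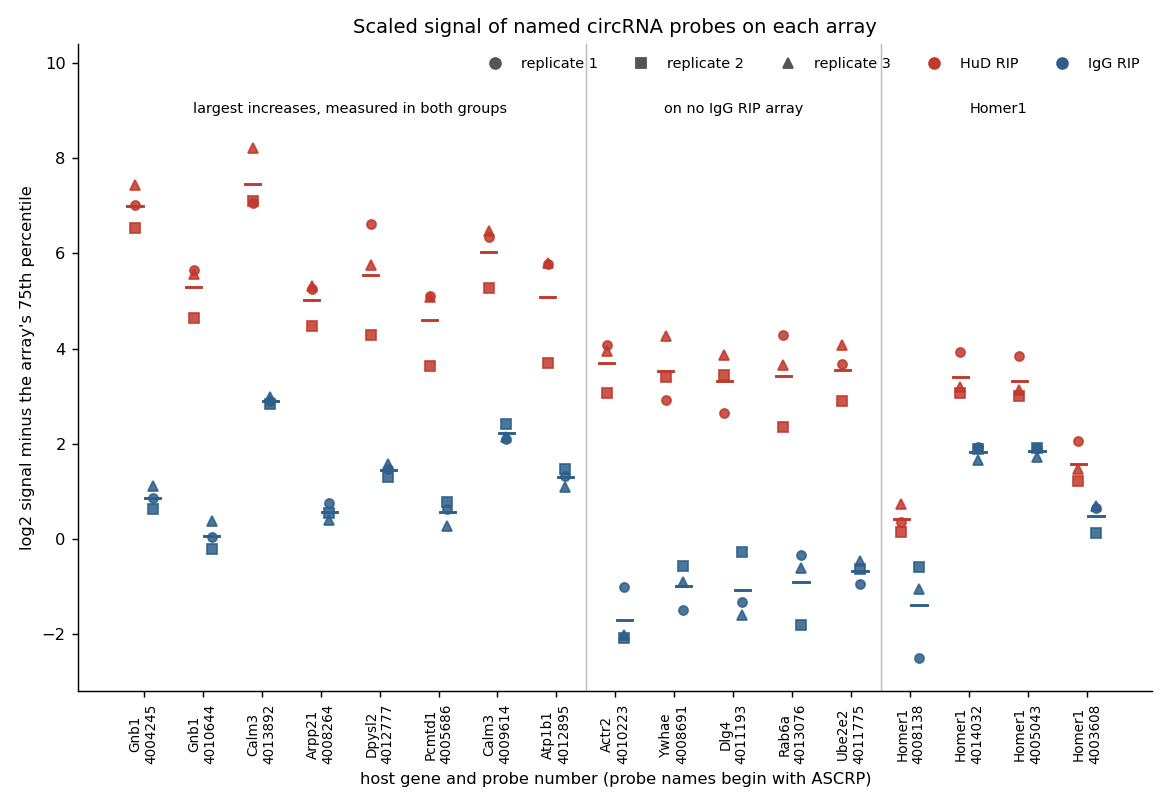
Scaled log2 signal (vertical axis, log2 units relative to each array's 75th percentile) of 17 named circRNA probes (horizontal axis) on the 3 HuD RIP arrays (red) and 3 IgG RIP arrays (blue), with marker shape for the replicate and a bar for the group mean. For every probe shown all red points lie above all blue points, by the most for Gnb1 and by the least for Homer1.

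The back-splice junctions of these circRNAs are what the probes read, and a selection from the probes with large increases or bounds is shown with 60 bases each, as the authors' tables give them. Capitals mark 3 short AU-rich and U-rich words, the pentamer ATTTA, a run of 5 T (TTTTT), and TGTTT, each searched on the RNA strand only. The positions in the lines are those of the circRNA, with no statement in the sources on whether the start counts from 0 or from 1.
Calm3 ASCRP4013892, chr7:16917074-16917135, minus strand: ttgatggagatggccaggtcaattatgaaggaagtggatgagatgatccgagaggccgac
Calm3 ASCRP4009614, chr7:16917596-16917698, minus strand: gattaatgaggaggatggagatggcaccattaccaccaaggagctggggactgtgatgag
Arpp21 ASCRP4008264, chr9:112183494-112187766, minus strand: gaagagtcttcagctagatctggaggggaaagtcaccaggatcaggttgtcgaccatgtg
Dpysl2 ASCRP4012777, chr14:66813125-66834376, minus strand: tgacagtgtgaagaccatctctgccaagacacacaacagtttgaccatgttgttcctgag
Pcmtd1 ASCRP4005686, chr1:7120193-7120615, plus strand: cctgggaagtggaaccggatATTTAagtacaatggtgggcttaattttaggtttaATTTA
Atp1b1 ASCRP4012895, chr1:164439298-164441641, minus strand: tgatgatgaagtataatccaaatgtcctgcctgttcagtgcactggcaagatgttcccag
Actr2 ASCRP4010223, chr11:20077184-20091370, minus strand: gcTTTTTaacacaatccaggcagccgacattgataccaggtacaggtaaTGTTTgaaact
Ywhae ASCRP4008691, chr11:75751880-75759428, plus strand: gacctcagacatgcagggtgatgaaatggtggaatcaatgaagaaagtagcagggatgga
Of these 8 junctions, those of Pcmtd1 and Actr2 held a searched word. Over all 737 named junctions, ATTTA stood in 5.29%, TTTTT in 3.66% and TGTTT in 6.38%, and 14.1% held at least 1 of the 3, where overlapping words were counted each. The share was 14.8% of the 655 named junctions called higher and 6.49% of the 77 tested and not called, which are 97 and 5 junctions, and the median T content was 23.3% and 21.7%, differences that were not tested. These 60 bases are a piece of each circRNA, and a large one for the Calm3 circles, which span 61 and 102 bases. The rest of each sequence was not analysed here.

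A larger set of circRNAs was above background in HuD RIP and on no IgG RIP array, and some of these were also above background on WT RIP arrays. Of the 2081 tested probes on all 3 HuD RIP arrays and no IgG RIP array, 910 were called higher and 23 lower. These probes passed the filter through their HuD RIP arrays, so their direction is not a separate result. For a probe with no IgG RIP array above background the fold is a lower bound, set against the lowest signal well above background on each IgG RIP array or the probe's own signal, whichever was higher. The fitted log2 difference of such a probe rests on signal that was not measured, so bounds are given in its place. An adjusted p printed beside a bound, here and below, belongs to that fitted difference. It does not test the bound and is no support for the direction. The bound exceeded 1 for 648 of the higher probes, with a median of 1.82. Actr2, a subunit of the Arp2/3 complex that branches actin filaments, read 4.07, 3.07 and 3.95 against -1.02, -2.08 and -2.01 at probe ASCRP4010223, at least 13.4-fold higher (adjusted p = 2.59e-05, limma).

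Further bounds belonged to genes of protein turnover, scaffolding and transport. Ube2e2, a ubiquitin-conjugating enzyme, was at least 12.1-fold higher at the intronic probe ASCRP4011775 (3.68, 2.90 and 4.08 against -0.94, -0.63 and -0.45; adjusted p = 6.99e-05, limma). Ywhae, a 14-3-3 adaptor protein, was at least 11.96-fold higher at ASCRP4008691, where HuD RIP read 2.93, 3.40 and 4.26 and IgG RIP -1.49, -0.57 and -0.90. Rab6a, a small GTPase of Golgi traffic, was at least 11.1-fold higher (4.29, 2.35 and 3.65 against -0.32, -1.80 and -0.61). The probe ASCRP4011193 on the strand opposite to Dlg4, the gene of the postsynaptic scaffold PSD-95, was at least 10.3-fold higher (2.66, 3.44 and 3.87 against -1.33, -0.28 and -1.59). The 2 groups overlapped in none of these 5 genes, and bounds have no order among themselves.

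Where signal was measured in both groups the balance of calls was the reverse. Of the 2713 probes detected on all 6 arrays, 100 were higher and 1271 lower, with a median log2 fold change of -1.09. With the test confined to those probes, 126 were higher and 1464 lower. With the filter set at 1 array of each group, 240 were higher and 1524 lower. Calls also followed the level on the WT RIP arrays, which this contrast does not use but which correlated with the IgG RIP arrays at 0.87 to 0.92. Tested circRNA probes were put in 5 bins of 1204 by their mean WT RIP level. The bin of the lowest levels had a median fitted log2 fold change of 1.25, with 53.8% higher and 2.16% lower. In the bin of the highest levels the median was -1.25, with 1.66% higher and 54.9% lower. The 3 bins between had medians of 0.17, -0.51 and -0.86, so the median fell at each step. In the lowest bin the median IgG RIP level was -1.55, while no IgG RIP array had a signal well above background under -0.28. Most probes of that bin thus passed the filter through their HuD RIP arrays, so the trend over bins is not a separate result.

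**Figure D2:**
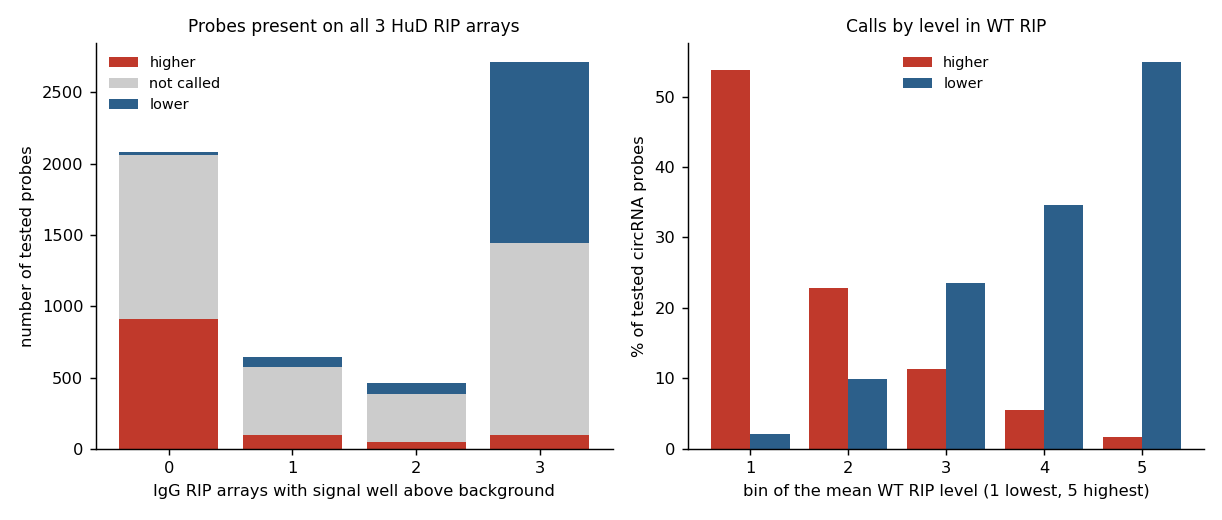
Left, number of tested probes on all 3 HuD RIP arrays (vertical axis) by how many IgG RIP arrays also had signal well above background (horizontal axis), split by call; right, percent of tested circRNA probes called higher or lower (vertical axis) in each of the 5 bins of the mean WT RIP level (horizontal axis). Higher calls (red) gather among 910 probes on no IgG RIP array and in the lowest bin, and lower calls (blue) among 1271 probes on all 6 arrays and in the highest bin.

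Among host genes of striatal signalling through G proteins, cAMP and calmodulin, 28 of 29 tested named probes were higher, from 15 of 16 genes. This is 96.6%, beside 89.5% of all named probes. The list's median was 3.27 as fitted and 2.19 with probes on no IgG RIP array set at their bound, beside 2.18 and 1.20 over all named probes and -0.38 over all tested probes. Besides Gnb1, Calm3 and Arpp21, 3 probes of Ppp1cb, a catalytic subunit of protein phosphatase 1, were at least 2.94-fold, 7.56-fold and 8.11-fold higher. Prkacb, a catalytic subunit of protein kinase A, was higher by 3.52 at ASCRP4000203, which 1 IgG RIP array measured, and at least 4.12-fold at its other probe. Gnai1, an inhibitory G protein subunit, was higher by 1.12 at 1 probe and at least 3.75-fold at another. At its probe ASCRP4014021, which only 1 IgG RIP array measured, the difference was 1.29. The probe of Gnao1, the G protein alpha subunit most abundant in brain, was not called (0.94, limma adjusted p = 0.0625).

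Glutamatergic synapse and scaffold genes had 32 of 37 tested probes higher (86.5%), with at least 1 higher probe in all 21 genes and a median of 1.80 as fitted and 1.09 with bounds. Anks1b, a postsynaptic density protein, was higher by 2.46 at 1 probe and at least 4.78-fold at another, and by 1.77 at ASCRP4000194, which only 1 IgG RIP array measured. Its probe ASCRP4011825 read 2.86, 1.85 and 3.32 in HuD RIP against -1.56, -0.73 and -0.72 in IgG RIP (at least 6.61-fold higher, limma adjusted p = 0.000286). Grm5, the metabotropic glutamate receptor mGluR5, was at least 2.94-fold and 2.98-fold higher at 2 probes, and Dlg1, another membrane-associated guanylate kinase scaffold, at least 1.61-fold and 1.22-fold. Gria2, the AMPA receptor subunit GluA2, was at least 1.94-fold higher at ASCRP4007236 and not called at ASCRP4008224 (0.77, limma adjusted p = 0.134). The exonic Dlg4 probe ASCRP4009033, listed only against WT RIP, did not move with the antisense one: it read 4.10, 3.89 and 4.37 in HuD RIP and 4.08, 4.22 and 4.40 in IgG RIP, a difference of -0.11 (limma adjusted p = 0.82).

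Homer1 encodes the scaffold that ties mGluR5 to the postsynaptic density. It hosts circHomer1a, which the paper cites from earlier work as a HuD target. Homer1 had 4 tested probes. ASCRP4005043 read 3.84, 3.00 and 3.13 in HuD RIP and 1.91, 1.92 and 1.73 in IgG RIP, which gave a difference of 1.47 (SE 0.40, limma adjusted p = 0.0156). ASCRP4014032 read 3.93, 3.07 and 3.20 against 1.94, 1.88 and 1.67, a difference of 1.57 (adjusted p = 0.0124, limma). The 2 groups did not overlap in either, and the WT RIP arrays read 2.66, 0.82 and 0.79 for the first. ASCRP4003608 read 2.07, 1.21 and 1.47 against 0.66, 0.12 and 0.70, a difference of 1.09 (adjusted p = 0.0474, limma), and ASCRP4008138 was at least 1.38-fold higher (adjusted p = 0.0169, limma). The junctions of 3 of these probes share a run of 27 bases, shown in capitals, so their signals are not independent.
Homer1 ASCRP4005043, exonic, chr13:93341755-93356079, plus strand: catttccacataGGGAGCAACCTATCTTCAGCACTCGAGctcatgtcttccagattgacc
Homer1 ASCRP4014032, intronic, chr13:93341755-93357647, plus strand: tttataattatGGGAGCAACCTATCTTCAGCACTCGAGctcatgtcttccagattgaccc
Homer1 ASCRP4003608, intronic, chr13:93341753-93356080, plus strand: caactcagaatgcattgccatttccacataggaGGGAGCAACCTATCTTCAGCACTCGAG
Homer1 ASCRP4008138, exonic, chr13:93387523-93393108, plus strand: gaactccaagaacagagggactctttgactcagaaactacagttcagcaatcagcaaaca
The Homer1 calls held under fewer settings than those of Gnb1 or Calm3. The call of ASCRP4003608 was lost in 11 of 17 alternatives, that of ASCRP4005043 in 7 of 18, and those of ASCRP4014032 and ASCRP4008138 in 5 of 18 and 5 of 16, all with the direction kept. All 4 calls were lost without HuD RIP replicate 3.

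Genes of presynaptic vesicle release and recycling had 20 of 23 tested probes higher, from 16 of 18 genes (87.0% of probes), with a median of 1.69 as fitted and 1.45 with bounds. Ppfia2, the active-zone scaffold liprin alpha 2, had 2 higher probes. ASCRP4006900 read 0.79, -0.19 and 0.73 in HuD RIP and -2.58, -2.02 and -2.02 in IgG RIP, at least 1.41-fold higher (limma adjusted p = 0.00113), and the bound of the other was 2.87-fold. Syt11, a synaptotagmin of vesicle traffic, was at least 4.59-fold higher. Syt1, the calcium sensor of fast release, was not called (1.17, limma adjusted p = 0.0543), nor was Bin1, a membrane-bending protein of endocytosis (0.88, adjusted p = 0.0773, limma). Ion channel, pump and GABA receptor genes had 21 of 24 higher (87.5%), with a median of 2.25 as fitted and 1.44 with bounds. Cacnb4, a calcium channel beta subunit, read 2.50, 0.96 and 2.39 against -2.54, -1.85 and -1.92, at least 3.99-fold higher. Kcnc2, a fast Kv3 potassium channel, was at least 4.59-fold higher (limma adjusted p = 0.00034). Both probes of Gabrb2, the GABA-A receptor beta 2 subunit, were not called, at 0.87 and 1.08.

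Cytoskeleton and axonal transport genes had 40 of 44 tested probes higher, from 29 of 32 genes (90.9% of probes), with a median of 2.30 as fitted and 1.26 with bounds. One of these probes was for linear Actb, the others for circRNAs. Map4, a microtubule-associated protein, read 3.02, 2.36 and 3.26 in HuD RIP and -2.32, -2.07 and -2.04 in IgG RIP, at least 7.60-fold higher (limma adjusted p = 2.59e-05), and was not above background on any WT RIP array either. Kif5c, a neuronal kinesin heavy chain, was higher by 2.47 at 1 probe and at least 1.90-fold at another. At its probe ASCRP4004368, which only 1 IgG RIP array measured, the difference was 2.63. Map2, the dendritic microtubule protein, was higher by 1.16 and 1.45 at 2 probes and at least 1.28-fold at the third. Dpysl3, a relative of Dpysl2, and Tmod2, which caps actin filaments, were measured on all 6 arrays and not called, at 0.26 (limma adjusted p = 0.594) and 0.49 (adjusted p = 0.293, limma). Ubiquitin pathway genes had 30 of 33 higher (90.9%), with 30 of the 33 on no IgG RIP array and a median of 2.49 as fitted and 1.25 with bounds. Besides Ube2e2, Rnf11, a RING-finger protein, read 1.97, 2.19 and 2.80 against -2.53, -2.04 and -2.05, at least 5.16-fold higher. Trim37, a ubiquitin ligase, had 3 higher probes with bounds of 1.28-fold, 3.39-fold and 6.64-fold, and Ttc3, another ligase, 1 probe that was not called (0.91, limma adjusted p = 0.111).

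Genes of RNA binding and RNA processing had 52 of 57 tested probes higher, from 39 of 42 genes (91.2% of probes), with a median of 2.24 as fitted and 1.24 with bounds, and 42 of the 57 were on no IgG RIP array. Rbfox2, a neuronal splicing regulator, had 2 higher probes, 1 of them at least 8.67-fold. ASCRP4010552 read 3.50, 2.59 and 3.46 in HuD RIP and -1.58, -1.88 and -2.05 in IgG RIP, at least 9.38-fold higher. Mbnl2, another splicing regulator, was higher by 2.58 at 1 probe and at least 8.28-fold at another, and Fmr1, the gene of the fragile X protein FMRP, at least 2.28-fold. Rbfox1, a relative of Rbfox2, was called higher at 1 probe with no bound over 1 and not called at another (0.70, limma adjusted p = 0.143), and Celf2, another splicing and stability factor, was not called (0.62, adjusted p = 0.193, limma). Transcription factor and chromatin genes had 63 of 73 higher, from 46 of 47 genes (86.3% of probes), with a median of 1.99 as fitted and 1.17 with bounds. Mef2c, an activity-regulated transcription factor, was at least 6.43-fold higher at 1 probe and at least 4.13-fold at ASCRP4010393, which read 2.12, 1.51 and 2.36 against -2.24, -2.02 and -1.72. Cux1, a homeobox factor, was at least 2.94-fold higher (2.14, 1.1 and 1.29 against -2.41, -2.11 and -2.02). None of the tested named probes of the 8 lists was lower. The same held for all 732 named circRNA probes tested. They were listed for being high on these same arrays, so this is no result about the lists.

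**Figure D3:**
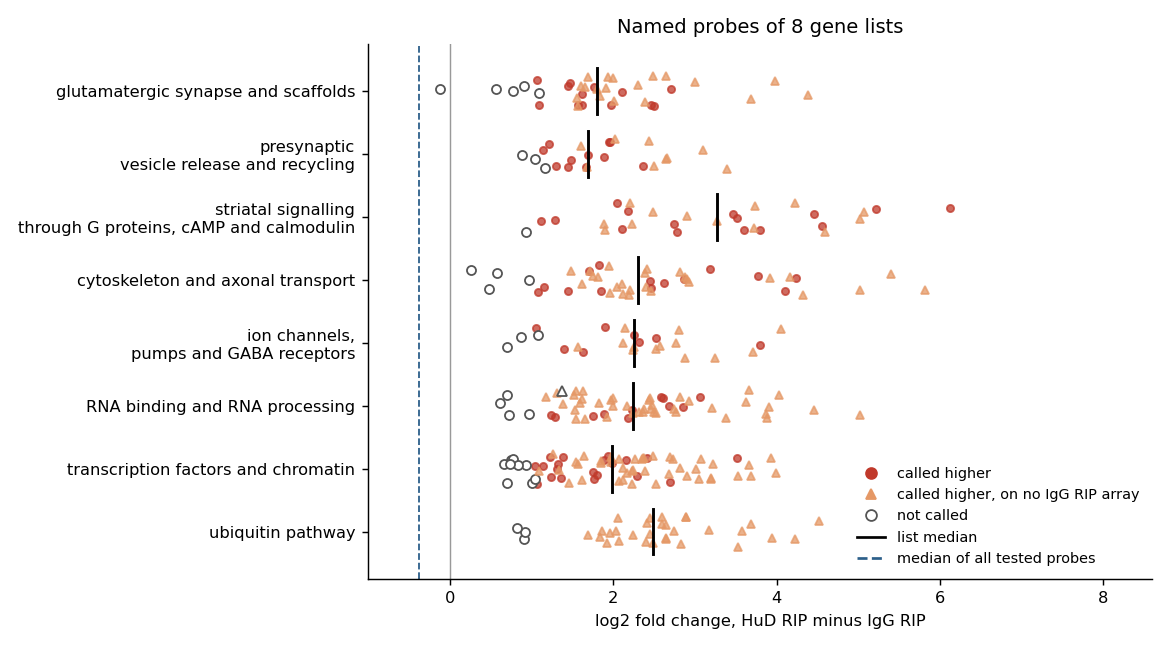
Log2 fold change of HuD RIP minus IgG RIP (horizontal axis) for each tested named probe of 8 gene lists (rows), filled where called higher and open where not called, as triangles where the probe was on no IgG RIP array and its value is a fitted one, with the list median as a black bar and the median of all tested probes (-0.38) as a dashed line. Fitted list medians run from 1.69 to 3.27, and only 1 probe, the exonic one of Dlg4, lies below 0.

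Some host genes had several named probes. Only probes listed as higher carry a name, so they cannot show whether all circRNAs of a gene moved together. Of 145 host genes with at least 2 tested named probes, 112 had every probe called higher, 30 had some called and 3 had none. This stands beside 89.5% of all named probes called higher, taken singly. The 3 genes were Gabrb2, Lppr4 and Rad52, a set singled out after its values were seen. In 26 host genes at least 2 probes were above background on 2 or more arrays of each group. There the difference between the highest and the lowest log2 fold change of a gene had a median of 0.38 and reached 1.93 in Nptn, the gene of the synaptic adhesion protein neuroplastin (0.57 and 2.50). Mapk10, the neuronal kinase JNK3, was at least 5.49-fold and 7.05-fold higher at 2 probes on no IgG RIP array, and had 1 measured on all 6 arrays at 0.03 (means 3.33 ± 0.17 in HuD RIP and 3.29 ± 0.04 in IgG RIP, SD, n = 3). Foxp1, a transcription factor of medium spiny neurons, showed the same arrangement, with bounds of 4.89-fold and 6.38-fold at probes on no IgG RIP array and 0.75 at 1 measured on all 6. Tspan7, a membrane tetraspanin, was higher at all 3 probes, by 2.35 and 3.43 where all IgG RIP arrays measured it and by 5.28 where 1 did.

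Circles that differ by a few bases at their ends were compared in pairs. In 7 host genes, 9 pairs of probes had starts and ends within 5 bases of each other. Their junctions shared a median of 32 bases, so the signals of a pair are not independent. Of the 9 pairs, 5 were above background on 2 or more arrays of each group. The log2 fold changes of those 5 differed by a median of 0.18, against 0.33 for the 27 other such pairs of probes from 1 gene. A pair of intronic Tulp4 probes gave 2.26 (fitted without IgG RIP replicate 2, whose spot was an outlier) and 2.44, and the Rad52 pair 0.55 and 0.65. The exception was Camta1, a calmodulin-binding transcription activator. There ASCRP4000804 differed by 0.71 (limma adjusted p = 0.149) and ASCRP4008028, whose end lies 2 bases away, by 1.94 (limma adjusted p = 0.00532). IgG RIP read 2.09, 2.05 and 2.52 at the first and 0.96, 1.31 and 1.48 at the second, and HuD RIP 2.92, 2.67 and 3.20 at the first and 3.30, 2.74 and 3.52 at the second, and levels of different probes are not comparable.

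**Figure D4:**
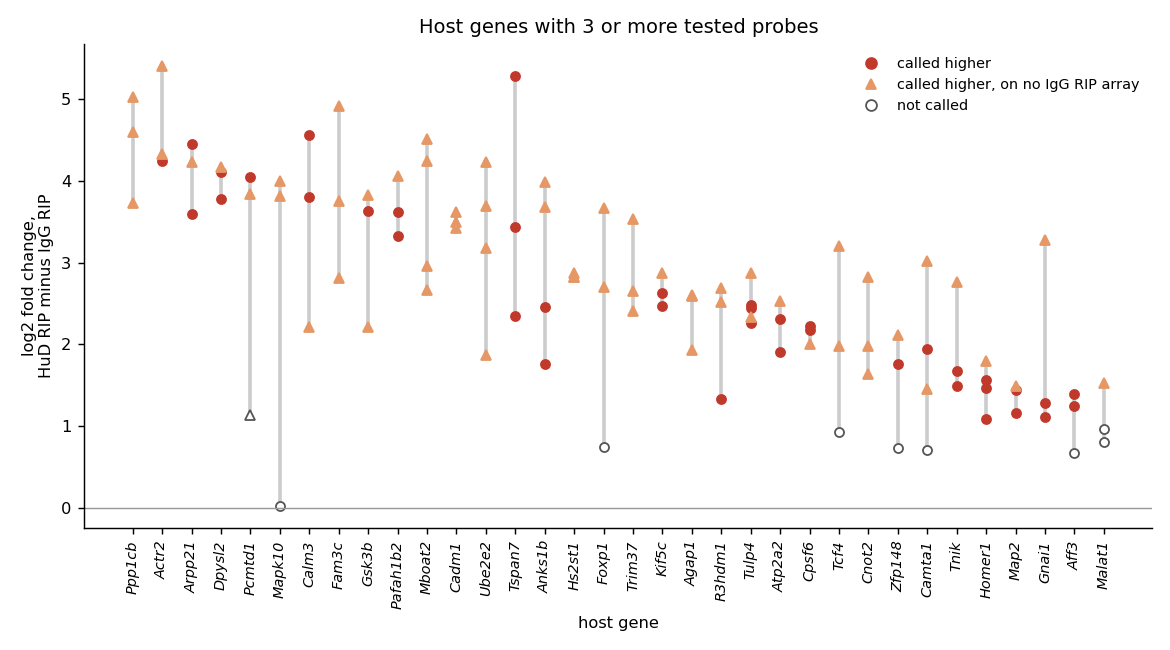
Log2 fold change of HuD RIP minus IgG RIP (vertical axis) for each tested probe of the 34 host genes with 3 or more (horizontal axis, ordered by median), filled where called higher and open where not called, as triangles where the probe was on no IgG RIP array and its value is a fitted one, with a grey line over each gene's values. All probes were called in 26 of the genes, and the probe nearest 0 is that of Mapk10, at 0.03.

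By class, 574 of 639 tested exonic named probes were higher, 59 of 68 sense-overlapping, 18 of 20 intronic and 4 of 5 antisense ones, with medians of 1.19, 1.22, 1.37 and 1.90 when probes on no IgG RIP array are set at their bound. The exonic circles spanned a median of 11642 bases of genome and the sense-overlapping ones 6288.5. Of the 668 probes the authors' table lists against IgG RIP, 663 were tested, 611 were called higher and all 663 had a positive log2 fold change. Of the 69 listed only against WT RIP, all were tested, 44 were higher than IgG RIP and 67 had a positive value, with a median of 1.49 as fitted and 0.41 with bounds, and both listings rest on the same HuD RIP arrays. Another 541 probes were called higher here without a place in the table against IgG RIP, and most of them have no host gene name in the files used.

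Among probes above background on 2 or more arrays of each group, the largest decreases fell on probes without a host gene name and on 1 linear probe. ASCRP4001686 read -2.43, -0.54 and -2.29 in HuD RIP and 2.95, 1.88 and 1.75 in IgG RIP, which gave a difference of -3.95 (SE 0.55, limma adjusted p = 0.000474). ASCRP4006290 read -1.92, -0.80 and -2.51 against 2.43, 1.64 and 1.37, a difference of -3.55 (adjusted p = 0.0005, limma). ASCRP4011381 and ASCRP4006907 followed at -3.46 and -3.32. All 4 had HuD RIP replicate 2 as the highest of the HuD RIP arrays and none overlapped between groups. Their WT RIP means lay between those of the other groups, for example 0.32 ± 0.61 (SD, n = 3) for ASCRP4001686. Of the 1522 lower probes, 1383 were above background on at least 2 arrays of each group, with a median of -1.53, and 1478 had the higher mean signal in HuD RIP before scaling. A probe of this last kind was lower relative to the other probes of its array, not dimmer. The median SD of the lower probes was 0.73 in HuD RIP and 0.17 in IgG RIP.

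RNase R digests linear RNA, and the array holds 50 probes for linear genes, of which 44 matched a symbol. Of the 19 tested, 2 were higher and 10 lower, with a median of -1.24. Over all tested probes, 19.0% were higher and 25.1% lower, with a median of -0.38. Most of the linear probes tested were well above background on every array of both groups. Of the 2713 tested probes of that kind, 100 were higher and 1271 lower, with a median of -1.09. Whether linear probes differed from these was not tested. Linear Actb, cytoskeletal beta-actin, read 4.32, 2.99 and 3.96 in HuD RIP and -2.34, -2.04 and -1.79 in IgG RIP, at least 14.0-fold higher (limma adjusted p = 2.57e-05). Lhfp was at least 1.28-fold higher (adjusted p = 0.0045, limma). Ppara, a nuclear receptor of fatty acid metabolism, read -1.56, -0.06 and -1.53 against 3.00, 2.13 and 2.23, a difference of -3.50 (limma adjusted p = 0.000487).

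Cell type markers could be read only where a marker gene was among the named or linear probes. Of the medium spiny neuron list 3 genes (Arpp21, Foxp1 and Bcl11b) had 7 tested probes, of which 6 were higher, beside 89.5% of all named probes. Their summed scaled signal on a linear scale was 62.5 to 138 on the HuD RIP arrays and 7.81 to 9.89 on the IgG RIP arrays. The highest HuD RIP means were those of Arpp21, 5.19 and 5.02, beside a list median of 2.98. The IgG RIP sum includes 3 probes on no IgG RIP array, whose signal there was not measured, and the astrocyte sum below includes 1. Of the cortical excitatory neuron markers, Cux2 had 1 probe, on no IgG RIP array, which read 2.30, -0.37 and 1.72 in HuD RIP and -2.32, -1.88 and -1.31 in IgG RIP (at least 2.41-fold higher, limma adjusted p = 0.00455). Of the astrocyte list, Slc6a11, a GABA transporter, was at least 1.63-fold higher, and Slc1a2, the glutamate transporter GLT-1, was not called (0.71, limma adjusted p = 0.162). For the 2 together the summed signal was 5.54 to 11.2 against 4.25 to 4.80. Of the oligodendrocyte list only linear Mbp was tested, and it differed by -0.13 (adjusted p = 0.859, limma). No microglial or endothelial marker was among them. More cells of a type, more RNA per cell and more RNA on the beads cannot be told apart here, and the part of cell type makeup in the calls was not tested.

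At the threshold itself stood Naa50, the gene of an N-terminal acetyltransferase, whose probe ASCRP4008556 was the last called increase (1.01), with HuD RIP at 2.48, 2.32 and 2.77 and IgG RIP at 1.38, 1.80 and 1.35. The first not called, ASCRP4004653, differed by 1.17 (limma adjusted p = 0.0501), with 3.12, 1.76 and 1.89 against 0.93, 1.15 and 1.19. Neither pair of groups overlapped. Among the 24 probes named above for the largest increases, the largest bounds and the gene lists, 5 kept their call under every alternative that could be fitted, and none changed direction. The others lost it under 1 to 3 alternatives.

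**Figure D5:**
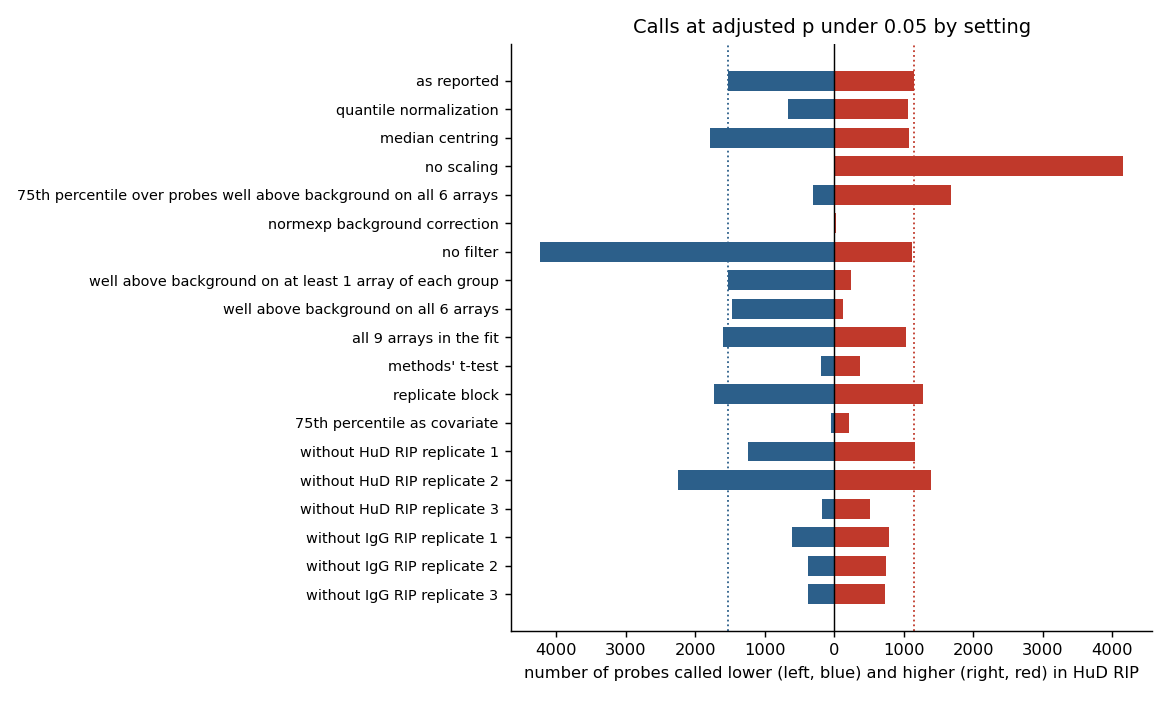
Number of probes called higher (right, red) and lower (left, blue) in HuD RIP at an adjusted p under 0.05 (horizontal axis) under each setting (rows), with dotted lines at the reported 1152 and 1522. The lower count runs from 0 to 4227 and the higher count from 24 to 4162 across the settings.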

How the data were processed

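RNA from 3 HuD RIP, 3 IgG RIP and 3 WT RIP samples was treated with RNase R, amplified by random priming, labelled with Cy3 and hybridized to 1-colour circRNA arrays (Arraystar Mouse circRNA Array V2) by the authors' service provider. Per the file headers, Feature Extraction 11.0.1.1 read the spots, and its processed intensity is background-corrected but not normalized between arrays. The authors' deposited tables gave circRNA positions and host genes for listed probes, and their 32 columns of normalized values, fold changes and tests were not used.

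Outlier spots (269 values) were left out, 0 values were saturated, and spots of 1 probe were averaged. The log2 processed intensity of each array was reduced by its 75th percentile, taken without control probes. Testing covered probes that stood well above background on 3 or more of 6 arrays and used limma 3.58.1 in R 4.3.3 (lmFit and eBayes, 4 residual and 8.35 prior degrees of freedom, two-sided, Benjamini-Hochberg adjustment over all tested probes). The number of arrays limits the precision. The fit was tested on simulated data.

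Groups follow the sample labels. The members, gene lists and marker lists were chosen with earlier results of these data known. Named probes were the 8 largest called increases with a host gene and at least 2 arrays of each group, the 6 largest bounds, the 5 largest decreases, the 2 smallest p of each gene list, Homer1 and 4 further genes that had no named tested probe here, the 2 largest linear changes each way and the 2 probes nearest the threshold; other members of lists, markers and host genes with several probes are given as examples. Some probes that this rule names, and some list and marker members, are not reported here. Junctions that may hold untranslated bases are not printed. A probe's position lay inside its gene on GRCm38.p6 for 685 of 688 transcripts matched to RefSeq. Alternatives were other scalings, background correction, filters, fits and leaving out each array.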

Additional observations from a re-analysis of the deposited data

How the results depend on the processing

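Counts are given as higher and lower, against 1152 and 1522. Lower calls were 661 after quantile normalization and 302 (with 1677 higher, within 1.5 times) when the percentile was taken over probes on all 6 arrays, and no scaling gave 4162 and 7. Normexp background correction (offset 50) gave 24 and 0 in limma, with 560 and 12 over 1.5-fold before adjustment (p under 0.05). The methods' t-test gave 367 and 185 after adjustment, and 1114 and 1533 over 1.5-fold without it. The array's percentile as a covariate gave 219 and 51, 75 and 16 of them shared with the reported calls, but it separates the groups completely and so cannot be told apart from them. Without a filter 4227 probes were lower, and the filters of 1 array of each group and of all 6 arrays gave 240 and 126 higher. Leaving out 1 array gave 510 to 1395 higher and 172 to 2248 lower. Median centring gave 1072 and 1791, and all 9 arrays in the fit 1033 and 1596.

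The reported fit did not pair samples by replicate number, and the sources do not settle whether the numbers pair them. Deviations of same-numbered arrays correlated at 0.14, 0.08 and 0.08, and each array correlated best with its own number, a hint from the data and not the design. With the replicate block, 1280 probes were higher and 1724 lower.

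Of the 36 probes recomputed under every alternative, the sign turned for ASCRP4004653 with the covariate (-0.29) and for no other. The cause was not tested. Limits are 3 arrays a group, host gene names for listed increases alone, array brightness that differed between groups, and bounds in place of folds for probes without IgG RIP signal.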
